A study of Homo sapiens with 12 samples.

Results

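The transcripts of 10 genes of the cell division machinery were followed in A375 cells, a human melanoma line that carries an activating BRAF mutation. The genes were CCND1, CCND2 and CCND3 (D-type cyclins), CCNE1 and CCNE2 (E-type cyclins), CCNA2 and CCNB1 (cyclins A2 and B1), and CDKN1A, CDKN1B and CDKN1C, which encode the CDK inhibitors p21, p27 and p57. They were taken by gene symbol as a family, with earlier results of these data known, and are 10 of the 44659 genes in the count table. All 4 groups held 3 libraries. Cells of the control group (CC) were kept for 72 h with DMSO, the solvent of the drugs. Cells of the treated group (TC) were kept for 72 h with 2 inhibitors, vemurafenib against BRAF and cobimetinib against MEK, each at 500 nM (MAPKi), and were collected when the treatment ended, on day 0. Persister cells (PC) went through the same 72 h of MAPKi, followed by 2 days of culture without drug. Recovered cells (RC) also went through 72 h of MAPKi, were then cultured for 9 days without drug and were passaged when needed. DMSO cells were harvested at day 0 only, so that in PC and RC the days in culture and the passages cannot be told apart from the drug history.

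Cyclins are the regulatory partners of the cyclin-dependent kinases (CDKs). D-type cyclins pair with CDK4 and CDK6 and link growth signals to the start of the cycle, and CCND1 is a long-known target of the BRAF, MEK and ERK cascade, which is constantly active in BRAF-mutant melanoma. E-type cyclins pair with CDK2 at the entry into S phase, cyclin A2 pairs with CDK2 and CDK1 from S phase on, and cyclin B1 with CDK1 drives mitosis. The proteins p21, p27 and p57 bind cyclin-CDK complexes and restrain them. All of these proteins are also controlled by modification and degradation, which a measurement of RNA does not see.

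The libraries held between 37773389 and 55567097 counts and from 20591 to 22363 genes with a count. Levels are given as CPM, the counts of a gene per 1000000 counts of its library, with library sizes scaled by the trimmed mean of M values (TMM), with factors between 0.965 and 1.02. Of the 10 genes, 9 passed the filter on low counts, CCND2 being the exception, and 15916 genes were tested. A gene is called where edgeR's quasi-likelihood test gives an adjusted p under 0.05, and called beyond 1.5-fold where the same fit rejects any change within that limit. The labels speak of triplicates and do not say whether these were separate cultures, so the p-values measure the spread between these libraries. The ERK output genes DUSP6, SPRY4 and ETV4 marked the drug action: their log2 fold changes in TC against CC were -5.32, -8.06 and -6.49. In PC they were still at -4.90, -9.10 and -7.07, and in RC at -0.22, -0.76 and -0.02, where SPRY4 was called lower (adjusted p = 0.0417). That call was lost in 11 of 20 alternative fits, among them the one without CC replicate 3 (log2 fold change -0.22, adjusted p = 0.107), which held 720 CPM beside 342 and 270 in the other CC libraries. DUSP6 held 77.6, 94.4 and 297 CPM in CC and 125 to 145 in RC. Its RC libraries thus lay above CC replicates 1 and 2 and below CC replicate 3. The melanocyte genes SOX10 and MITF averaged 659 and 362 CPM in CC, while MLANA and TYR averaged 0.545 and 2.09 CPM. Of 7 melanocyte lineage markers, 4 rose and 1 fell in TC, where 33.2% of all genes tested were called higher and 34.7% lower, and their summed level was 1429 to 1566 CPM in CC, 1964 to 2561 in TC, 1692 to 2080 in PC and 1238 to 1265 in RC. The 7 markers of other cell types summed to between 0.846 and 1.85 CPM in CC, TC and RC and to between 4.45 and 7.02 CPM in PC, with COL3A1 at 0 counts in all groups, and their part in the results was not tested.

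In TC, 4 of the 9 genes tested were called lower than in CC (CCND1, CCNE1, CCNA2 and CCNB1), where 34.7% of all genes tested were called lower. None was called higher by edgeR, at an adjusted or unadjusted p under 0.05, against 33.2% of all genes tested. DESeq2 also called none higher, and gave an unadjusted p under 0.05 to 1 gene, CCND3. Beyond 1.5-fold, 3 were lower (CCND1, CCNA2 and CCNB1), against 19.3% of all genes tested, and none was higher, against 16.1%. In PC, 5 were called lower and 2 higher than in CC, with backgrounds of 35.9% and 33.2%. Beyond 1.5-fold these counts were 3 and 1, with backgrounds of 19.9% and 17.2%. In RC, 2 were called lower and 4 higher than in CC, with backgrounds of 19.1% and 18.2%. Beyond 1.5-fold, 1 was lower and 2 were higher, with backgrounds of 2.52% and 1.35%. The comparisons of TC, PC and RC share the CC libraries. Whether these counts differ from the background was not tested. So many genes moved in TC and PC that the counts there are not read as a result. The results below rest on the size and order of the changes in each gene. In bulk RNA, fewer cells in a phase of the cycle and less RNA per cell cannot be told apart.

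**Figure D1:**
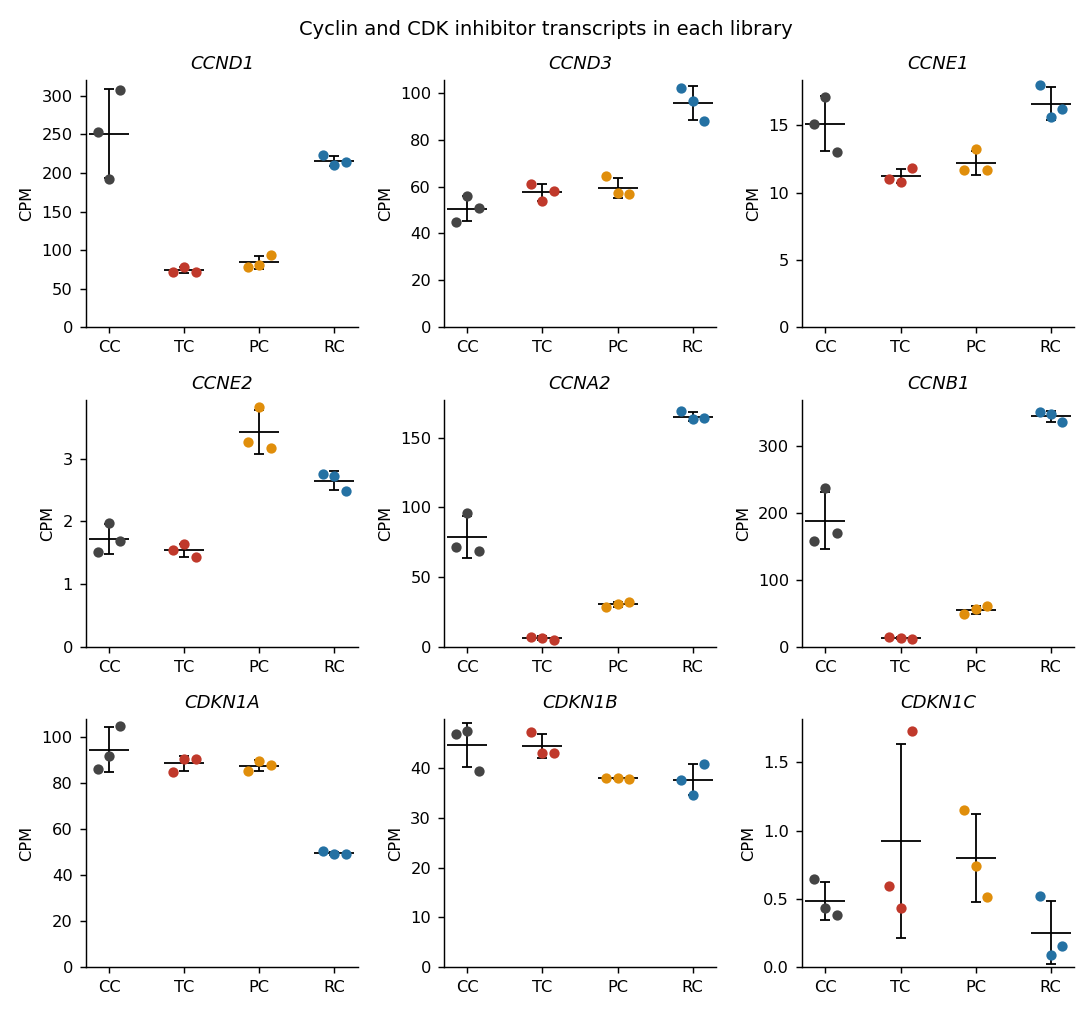
Level of 9 of the 10 transcripts in each library, in CPM on a linear axis from 0, with 1 point per library, 3 libraries per group, and the mean and SD in black. CCNA2 and CCNB1 were lowest in TC and highest in RC, CCND1 was low in both TC and PC, and CDKN1A stood apart only in RC, at 49.1 to 50.4 CPM.

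Cyclins A2 and B1 had the widest range of the 9 genes tested. CCNA2 (hg38 chr4:121816444-121823883, minus strand) measured 71.7, 96.2 and 69 CPM in the CC libraries, 7.59, 6.52 and 5.11 CPM in TC, 28.4, 30.6 and 32.5 CPM in PC and 169, 163 and 164 CPM in RC. The groups did not overlap, and their order was TC, PC, CC and RC. CCNB1 (hg38 chr5:69167135-69178245, plus strand) measured 159, 238 and 170 CPM in CC, 14.9, 14 and 11.9 CPM in TC, 49.2, 57.5 and 61.1 CPM in PC and 351, 348 and 336 CPM in RC. Its groups came in the same order, again with no overlap.

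In TC the CCNA2 mean was 12.4-fold below that of CC (log2 fold change -3.63, SE 0.15, adjusted p = 1.5e-09) and the CCNB1 mean 13.9-fold below (log2 fold change -3.80, SE 0.16, adjusted p = 1.2e-09). After 2 drug-free days both had risen from the TC level, CCNA2 by 2.26 and CCNB1 by 2.04 on the log2 scale (adjusted p = 1.7e-06 and 2.9e-06), and both were still below CC, with log2 fold changes of -1.37 and -1.76. They were thus partly back at day 2. At 9 drug-free days both exceeded CC: the log2 fold change in RC was 1.07 for CCNA2 (SE 0.13, adjusted p = 0.00013) and 0.87 for CCNB1 (SE 0.14, adjusted p = 0.00053). The rise of CCNA2 was also called beyond 1.5-fold (adjusted p = 0.0154), but not without CC replicate 1 (adjusted p = 0.073) or RC replicate 1 (adjusted p = 0.055). That of CCNB1 was not called beyond 1.5-fold (adjusted p = 0.127), except without CC replicate 2, its highest control library (adjusted p = 0.0031). From PC to RC the 2 transcripts rose by 2.44 and 2.63 on the log2 scale. The proliferation markers MKI67, TOP2A, PCNA and MCM2 summed to 1024 to 1153 CPM in CC, 85.6 to 98.6 in TC, 221 to 255 in PC and 1503 to 1635 in RC, which is the same order of groups. All 4 fell in TC and all 4 rose in RC against CC, although the call of TOP2A in RC (0.43, adjusted p = 0.0188) was lost without CC replicate 1 or 3 (adjusted p = 0.0508 and 0.0574) and without RC replicate 2 or 3 (0.0531 and 0.0621).

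The promoters of CCNA2 and CCNB1 are shown because these 2 transcripts moved together, and that of CDKN1B as another that holds a CCAAT box. CCND3 also holds one and is not shown. Whether the box has a part in the changes of any of these transcripts was not tested. Each run covers bases -160 to -21 before the transcription start in the RefSeq promoter table (GRCh38.p14), 5′ to 3′ on the gene's strand, with the CCAAT box, or ATTGG where it lies on the other strand, in capitals. The windows are chr4:121823904-121824043 (minus strand), chr5:69166990-69167129 (plus strand) and chr12:12717208-12717347 (plus strand), and none holds an annotated exon.
CCNA2: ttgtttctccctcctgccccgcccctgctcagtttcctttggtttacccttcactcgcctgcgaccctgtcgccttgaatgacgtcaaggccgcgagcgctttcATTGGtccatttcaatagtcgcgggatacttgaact
CCNB1: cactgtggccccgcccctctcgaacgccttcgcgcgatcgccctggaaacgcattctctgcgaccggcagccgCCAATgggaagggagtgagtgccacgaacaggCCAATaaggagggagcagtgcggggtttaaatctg
CDKN1B: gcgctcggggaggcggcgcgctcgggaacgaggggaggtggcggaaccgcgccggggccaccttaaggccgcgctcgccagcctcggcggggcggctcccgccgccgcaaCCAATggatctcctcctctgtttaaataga

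The CCAAT box is the letters bound by the factor NF-Y, and one lay at a like distance from the start in all 3 promoters: its first base was at -56 in CCNA2, -55 in CCNB1 and -50 in CDKN1B. The table held promoters of 6 of the 10 genes (CCNA2, CCNB1, CCND3, CCNE1, CDKN1A and CDKN1B), and the others were CCND1, CCND2, CCNE2 and CDKN1C. In the 250 bases before the start, searched on both strands, CCAAT occurred in 4 of the 6 (CCNA2, CCNB1, CCND3 and CDKN1B) and in 32% of all 35116 promoters of the table. The GC box (GGGCGG) occurred in all 6, and in 42.6% of all promoters. A gene was counted if any of its windows matched, while the shares are per promoter. The 6 genes had 8 windows, and not every CCND3 window held a GC box. The E-box CACGTG occurred in CCNB1 only, against 6.34% of all promoters. The CHR letters TTTGAA, the E2F letters (TTTCCCGC, TTTCGCGC, TTTGCCGC or TTTGGCGC) and the AP-1 letters TGANTCA matched none of the 6, and occur in 13.3%, 2.79% and 6.57% of all promoters. Among promoters of the genes tested, the shares were 60.6% for the GC box, 32.8% for CCAAT and 8.11% for the E-box. For CHR, E2F and AP-1 they were 9.54%, 3.97% and 4.88%. No CCAAT match shared a base with a match of another motif, and the GC boxes of CDKN1A that begin at -45 and -40 share 1 base. These are matches of letters and not measured sites. Only these exact letters were searched, and only before the start. Other forms of the motifs, and bases after the start, were not searched, so a motif without a match may still be present.

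Within each library the CCNB1 to CCNA2 ratio of CPM hardly moved while both transcripts changed more than 10-fold. It was 2.22 to 2.47 in CC, 1.96 to 2.33 in TC, 1.73 to 1.88 in PC and 2.04 to 2.13 in RC. PC was the group with the lowest ratios, below every library of the other groups. Over the 12 libraries the profiles of both genes, each centred on its own mean, lay 0.15 apart (root mean square distance, log2 scale). Among the 10677 genes searched, the nearest to CCNA2 were HJURP and CENPA, which encode a centromere chaperone and the centromeric histone (distances 0.06 and 0.09), and the nearest to CCNB1 were TTK, a mitotic checkpoint kinase, and CCNB2, the other B-type cyclin of mitosis (distances 0.07 and 0.12). Exons of CCNA2 overlap those of EXOSC9 on the opposite strand over 9.24% of their length, and the strand setting of the counting is not stated. EXOSC9 averaged 24.6 CPM in CC, 9.71 in TC, 10.7 in PC and 31.6 in RC, a narrower range, and its part in the CCNA2 values was not tested.

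**Figure D2:**
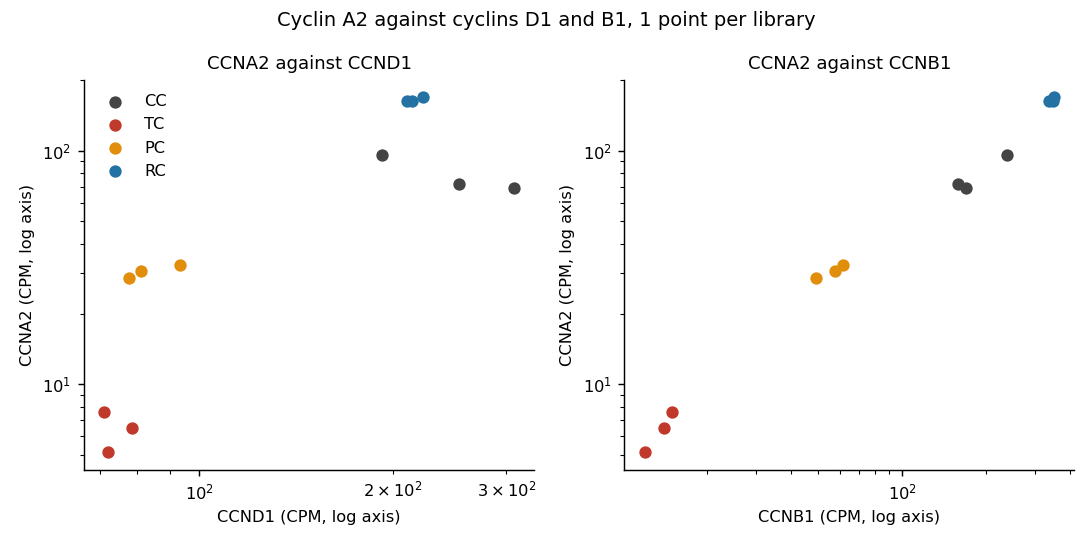
CCNA2 against CCND1 (left) and against CCNB1 (right), 1 point per library, both axes in CPM on a log scale. The 3 PC libraries hold 28.4 to 32.5 CPM of CCNA2, above the 5.11 to 7.59 of TC, at nearly the same CCND1 level, while CCNA2 and CCNB1 lie along 1 line in all 4 groups.

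CCND1 (cyclin D1, hg38 chr11:69641156-69654474, plus strand) followed another course. It measured 253, 192 and 308 CPM in CC, 71.2, 78.7 and 72.1 CPM in TC, 77.7, 81.2 and 93.2 CPM in PC and 223, 210 and 214 CPM in RC. The TC and PC libraries overlapped with each other and lay below all CC and RC libraries, while RC lay within the range of CC. The fall was 3.39-fold in TC (log2 fold change -1.76, SE 0.14, adjusted p = 2.7e-07) and 2.98-fold in PC (log2 fold change -1.58, adjusted p = 6.5e-07). Between TC and PC the log2 difference was 0.18, with a 95% interval from -0.11 to 0.48 (adjusted p = 0.362). That interval lies wholly below the intervals for CCNA2 (1.93 to 2.59) and CCNB1 (1.72 to 2.37) over the same 2 days. The ERK output genes DUSP6 and SPRY4 also did not pass the test between PC and TC (log2 fold changes 0.42 and -1.03, adjusted p = 0.582 and 0.156), and ETV4 fell further (-0.58, adjusted p = 0.003). From PC to RC, CCND1 rose by 1.36 (adjusted p = 2.2e-06).

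In RC the log2 fold change of CCND1 against CC was -0.22 with a 95% interval from -0.51 to 0.07 (adjusted p = 0.222), and it was called lower only without CC replicate 2, the lowest control library (-0.38, adjusted p = 0.009). The control libraries spread widely for this gene, with an SD of 57.9 CPM (n = 3), while the SD in RC was 6.61 about 216 CPM. The nearest profiles to CCND1 were those of WDR3, a factor of ribosome assembly, and EIF4EBP1, a repressor of translation initiation (distances 0.11 and 0.14). Exons of CCND1 overlap LTO1 on the opposite strand over 10.4% of their length. LTO1 moved the other way, with means of 8.55 CPM in CC, 11.8 in TC, 14.1 in PC and 7.97 in RC.

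CCND3 (cyclin D3, hg38 chr6:41934934-42050357, minus strand) did not fall with CCND1. It measured 45, 56 and 50.8 CPM in CC, 61, 53.8 and 58.1 CPM in TC, 64.6, 57.1 and 56.7 CPM in PC and 102, 96.6 and 87.9 CPM in RC. The CC and TC libraries overlapped, PC lay just above CC, and RC lay above all other libraries. In TC the log2 fold change was 0.19 with a 95% interval from -0.01 to 0.39 (adjusted p = 0.0859), and it passed only without CC replicate 2 (0.26, adjusted p = 0.0227). In PC it was 0.23 (adjusted p = 0.0386), a call that was lost without CC replicate 1, CC replicate 3 or PC replicate 1 (adjusted p = 0.16, 0.0561 and 0.146). The same call was lost with only the 2 groups in the fit (adjusted p = 0.0593). In RC the log2 fold change was 0.92 (SE 0.09, adjusted p = 3.7e-05), a rise of 1.89-fold, which was also called beyond 1.5-fold (adjusted p = 0.0146). The call beyond 1.5-fold was lost without CC replicate 1 (0.0676), RC replicate 1 (0.0663) or RC replicate 2 (0.0527). From PC to RC the rise was 0.68 (adjusted p = 2.5e-05). CCND3 was thus the D-type cyclin transcript that ended above the controls, at a time when CCND1 was within their range. The nearest profiles were those of PGP, a phosphatase, and TPM3, a tropomyosin (distances 0.10 and 0.11).

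CCND2 (cyclin D2, hg38 chr12:4269771-4305353, plus strand) had 0 counts in 10 of the 12 libraries and 2 and 1 counts in the others, both PC. A count of 0 allows up to 3 counts, which is 0.054 to 0.0794 CPM in these libraries (counting error only). It was not tested, and no difference between the groups was detectable at this depth.

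Set per kilobase, with the union of annotated exons as the length, the D-type cyclin RNA of a library summed to 50 to 73.4 CPM per kb in CC, 25.2 to 25.9 in TC, 27 to 29.4 in PC and 60.2 to 64.5 in RC. CCND3 made up 12 to 19.4% of this sum in CC, 36.1 to 41.4% in TC, 33.4 to 40.7% in PC and 25.4 to 27.5% in RC. The share in every TC, PC and RC library was above that in every CC library. With the longest transcript as the length, which is much shorter for CCND3, its share was 22.6 to 34% in CC, 54.8 to 60.3% in TC, 51.8 to 59.5% in PC and 42.1 to 44.9% in RC. The order of the groups was the same, but in TC and PC the leading D-type transcript was CCND1 by the first length and CCND3 by the second, so which of them led there depends on the transcript assumed.

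**Figure D3:**
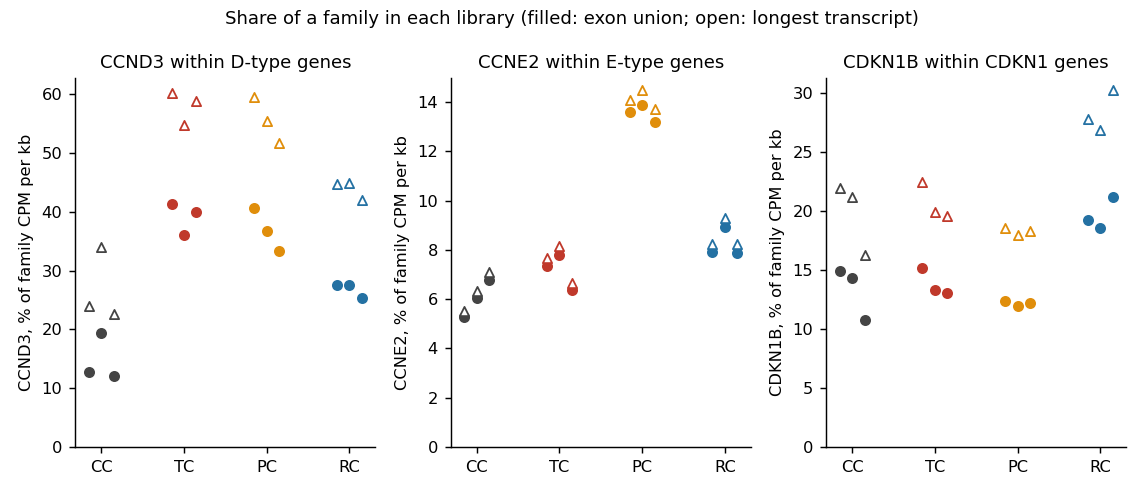
Share of CCND3 in the D-type cyclins, CCNE2 in the E-type cyclins and CDKN1B in the CDKN1 genes, in percent of the family's summed CPM per kb, 1 symbol per library, with the exon union (filled) or the longest transcript (open) as the length. CCND3 takes 12 to 19.4% in CC and 36.1 to 41.4% in TC by the exon union, and CCNE2 is highest in PC, at 13.2 to 13.9%.

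The E-type cyclins moved less, and not together. CCNE1 (cyclin E1, hg38 chr19:29811991-29824312, plus strand) measured 15.1, 17.1 and 13 CPM in CC, 11, 10.8 and 11.8 CPM in TC, 11.7, 13.2 and 11.7 CPM in PC and 18, 15.6 and 16.2 CPM in RC. TC lay below CC, PC overlapped with both, and RC overlapped with CC. In TC the log2 fold change was -0.43 (SE 0.11, adjusted p = 0.004), which is 1.35-fold lower. In PC it was -0.31 (adjusted p = 0.0249), a call that was lost without CC replicate 2, PC replicate 1 or PC replicate 3 (adjusted p = 0.099, 0.0817 and 0.0799). The same call was lost with a filter at a summed count of 2 and with only the 2 groups in the fit (adjusted p = 0.0517 and 0.0836). In RC the log2 fold change was 0.14 with a 95% interval from -0.10 to 0.37. From PC to RC CCNE1 rose by 0.44 (adjusted p = 0.003). Its nearest profiles were BUD13, a splicing factor, and COPS6, a subunit of the COP9 signalosome (both at a distance of 0.07).

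CCNE2 (cyclin E2, minus strand of chromosome 8) measured 1.51, 1.97 and 1.69 CPM in CC, 1.55, 1.64 and 1.44 CPM in TC, 3.27, 3.82 and 3.17 CPM in PC and 2.76, 2.72 and 2.48 CPM in RC. CC and TC overlapped, RC lay above both, and PC lay above all other libraries. CCNE2 was the only one of the 9 genes tested whose PC libraries all lay above every other library. Against CC the log2 fold change was -0.16 in TC (95% interval -0.51 to 0.19), 0.99 in PC (SE 0.16, adjusted p = 0.00014) and 0.62 in RC (SE 0.16, adjusted p = 0.0095). Against TC the rise in PC was 2.22-fold (log2 fold change 1.15, adjusted p = 0.00033). The rise in PC was called beyond 1.5-fold against CC by edgeR (adjusted p = 0.0101) and not by DESeq2 (adjusted p = 0.0803).

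From PC to RC the log2 fold change of CCNE2 was -0.37 (95% interval -0.71 to -0.02, adjusted p = 0.0541). It passed the threshold without CC replicate 1, 2 or 3 (adjusted p = 0.0468, 0.0401 and 0.0493), although CC is neither of the 2 groups compared. The fall also passed with RLE or upper quartile scaling factors (adjusted p = 0.0439 and 0.0334). With DESeq2, and with only the 2 groups in the fit, it passed as well (adjusted p = 0.0492 and 0.0364). The counts behind these values are low: the 3 libraries of a group summed to 228 counts in CC, 201 in TC, 438 in PC and 396 in RC. Exons of CCNE2 overlap those of INTS8 on the opposite strand over 37% of their length. INTS8 averaged 39.7 CPM in CC, 29.2 in TC, 30.7 in PC and 47.3 in RC, so it did not peak in PC, and its part in the CCNE2 values was not tested. The nearest profiles to CCNE2 were FIGN and SLC25A10 (distances 0.15 and 0.16). Per kilobase of exon union CCNE2 was 5.28 to 6.79% of the E-type RNA in CC, 6.38 to 7.79% in TC, 13.2 to 13.9% in PC and 7.89 to 8.91% in RC, so that CCNE1 was the main E-type transcript in all 12 libraries.

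**Figure D4:**
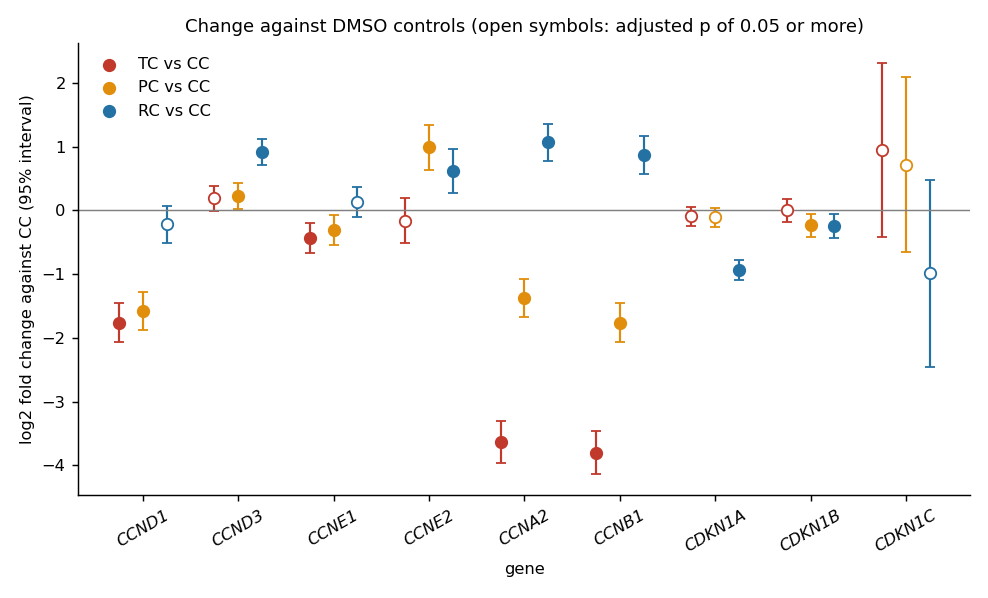
Log2 fold change against CC in TC, PC and RC for the 9 genes tested, with 95% intervals from the edgeR fit. Filled symbols have an adjusted p under 0.05. CCNA2 and CCNB1 span from -3.63 and -3.80 in TC to 1.07 and 0.87 in RC, while the intervals of CDKN1A and CDKN1B in TC enclose 0.

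None of the 3 CDKN1 transcripts was called higher in TC, PC or RC than in CC, by edgeR or DESeq2, also at an unadjusted p under 0.05. CDKN1A (p21, hg38 chr6:36676460-36687337, plus strand) measured 86.4, 91.7 and 105 CPM in CC, 84.9, 90.6 and 90.6 CPM in TC, 85.4, 89.8 and 87.8 CPM in PC and 50.4, 49.2 and 49.1 CPM in RC. CC, TC and PC overlapped, and RC lay below all of them. The log2 fold change against CC was -0.09 in TC (95% interval -0.24 to 0.06) and -0.11 in PC (95% interval -0.26 to 0.04), so that a rise of more than 0.06 on the log2 scale lay outside both intervals. The value in PC passed as a fall without CC replicate 1 (-0.17, adjusted p = 0.0406). In RC the transcript was 1.91-fold lower than in CC (log2 fold change -0.93, SE 0.07, adjusted p = 9.6e-06), and the fall was called beyond 1.5-fold (adjusted p = 0.0033). From PC to RC it fell by 0.82 on the log2 scale (adjusted p = 5.4e-07). Its nearest profiles were UBE2F, a conjugating enzyme for NEDD8, and ATG4B, a protease of autophagy (both at a distance of 0.10). DINOL, which overlaps 4.87% of its exons on the opposite strand, stayed at means of 0.0365 to 0.0987 CPM.

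CDKN1B (p27, hg38 chr12:12685498-12722369, plus strand) varied least. It measured 47, 47.5 and 39.5 CPM in CC, 47.4, 43.2 and 43.2 CPM in TC, 38, 38.1 and 37.9 CPM in PC and 37.6, 34.7 and 40.9 CPM in RC. In TC its mean of 44.6 ± 2.44 CPM (SD, n = 3) stood beside 44.7 ± 4.47 in CC, with a 95% interval of the log2 fold change from -0.18 to 0.18 and a point value whose sign turned with the scaling. It was called lower in PC (-0.23, SE 0.08, adjusted p = 0.0261) and in RC (-0.24, SE 0.08, adjusted p = 0.0395). Neither call was firm. The call in PC was lost without CC replicate 1 or 2 (adjusted p = 0.0787 and 0.0784) and without PC replicate 1, 2 or 3 (adjusted p = 0.062, 0.0634 and 0.0649). It was also lost with upper quartile scaling factors and with only the 2 groups in the fit (adjusted p = 0.0543 and 0.0769). The call in RC was lost without CC replicate 1 or 2 (adjusted p = 0.121 and 0.101), TC replicate 2 (0.0554), PC replicate 1, 2 or 3 (0.0533, 0.0576 and 0.0541) or RC replicate 1 or 2 (0.102 and 0.167). It was also lost with scaling by library totals, a filter at a summed count of 2, or only the 2 groups in the fit (adjusted p = 0.0765, 0.071 and 0.119). Against TC the PC value was -0.23 (adjusted p = 0.0644), and it passed without CC replicate 2 or 3 (adjusted p just under the threshold, 0.05 when rounded, and 0.0227). Its nearest profiles were COG4, a Golgi tethering subunit, and TXN2, the mitochondrial thioredoxin (distances 0.06 and 0.07).

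CDKN1C (p57, hg38 chr11:2883213-2885775, minus strand) was close to the limit of detection. It measured 0.642, 0.429 and 0.381 CPM in CC, 0.596, 0.434 and 1.73 CPM in TC, 1.15, 0.739 and 0.509 CPM in PC and 0.517, 0.089 and 0.151 CPM in RC. All groups overlapped with CC, and TC replicate 3 stood apart from the other TC libraries. Against CC no change was called, with intervals as wide as -0.41 to 2.31 in TC and -2.45 to 0.48 in RC. RC was called lower than PC (log2 fold change -1.70, SE 0.66, adjusted p = 0.0361) although 1 RC library overlapped with PC. That call was lost without PC replicate 1 or 2 (adjusted p = 0.122 and 0.0585) and without RC replicate 2 or 3 (adjusted p = 0.122 and 0.115). Its nearest profiles, MAGI2 and TNFAIP2, lay at distances of 0.58 and 0.60 and so were not close.

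Per kilobase of exon union, CDKN1A held 78.5 to 88.8% of the RNA of the 3 inhibitor genes in every library, and the sum fell from 34.2 to 39.6 CPM per kb in CC to 20.2 to 21.1 in RC. With the longest transcript as the length, the share of CDKN1A was 69.5 to 83.3%. The sum was then 49.3 to 55.8 CPM per kb in CC and 29.7 to 31.2 in RC. Set against cyclin A2 within a library, the CDKN1A to CCNA2 ratio of CPM was 0.953 to 1.53 in CC, 11.2 to 17.7 in TC, 2.71 to 3.01 in PC and 0.298 to 0.302 in RC. The CDKN1B to CCNA2 ratio was 0.493 to 0.655 in CC, 6.25 to 8.46 in TC, 1.17 to 1.34 in PC and 0.213 to 0.249 in RC. Both ratios were highest in TC, where CCNA2 was lowest, and lowest in RC, where CCNA2 was highest and CDKN1A lowest.

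Between TC and PC, 3 of the 9 genes were called higher (CCNE2, CCNA2 and CCNB1), against 12.2% of all genes tested, and none was called lower by edgeR or DESeq2, against 12.5%. At an unadjusted p under 0.05 each of these tools had 1 gene lower, CDKN1B. Between PC and RC, 5 were called higher (CCND1, CCND3, CCNE1, CCNA2 and CCNB1), against 35.7% of all genes tested, and 2 were called lower (CDKN1A and CDKN1C), against 34.2%. DESeq2 called CCNE2 lower as well (adjusted p = 0.0492). CCNA2 and CCNB1 thus passed the test as higher over both drug-free intervals, CCNE2 over the first alone, and CCND1, CCND3 and CCNE1 over the second alone. Whether the changes over these intervals differ was not tested.

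The kinases that these cyclins bind, and the enzymes that switch them on and off, fell in TC: 10 of 11 were called lower, against 34.7% of all genes tested, and the median log2 fold change was -1.92, beside -0.02 for all genes tested. CDC25C, a phosphatase that activates CDK1, fell most, from a mean of 15.5 to 0.495 CPM (log2 fold change -4.95). CDK7, the CDK-activating kinase, had the highest value (1.33, adjusted p = 0.16), which rested on TC replicate 2, at 9.58 CPM beside 2.36 and 1.27 in the other TC libraries and 1.61 to 1.99 in CC. Without that library its log2 fold change was 0.05. Among the partners of the cyclins, CDK1 fell by 3.60, CDK2 by 0.88, CDK6 by 0.88 and CDK4 by 0.19 on the log2 scale (adjusted p = 1.3e-09, 0.00025, 0.00063 and 0.0066). CDK4 thus held 144 CPM in TC beside 165 in CC, and its call was lost in 1 of 20 alternative fits. In PC 9 of the 11 were lower than in CC, against 35.9% of all genes tested. CDK1 had risen again from TC (2.10, adjusted p = 2.1e-06), while CDK2 and CDK6 had not passed the test (-0.34 and -0.06, adjusted p = 0.127 and 0.831). In RC 6 of the 11 were called higher than in CC, against 18.2% of all genes tested, among them CDK1 (0.73, adjusted p = 0.0012) and CDK2 (0.52, adjusted p = 0.0175, lost in 2 of 20 alternative fits).

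Of the other cell cycle cyclins, CCNB2 and CCNF fell in TC (log2 fold changes -3.94 and -1.98), rose again in PC against TC (2.00 and 1.05) and exceeded CC in RC (0.61 and 1.09). CCNB3 was low, at 1.09 CPM in CC, and was called only as lower in RC (-1.16, adjusted p = 0.0105). CCNA1, the cyclin A of germ cells, stayed at means of 0.0174 to 0.0733 CPM and was not tested.

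The INK4 inhibitors, which bind CDK4 and CDK6, gave a different picture from the CDKN1 genes. CDKN2C (p18) averaged 22.9 CPM in CC, 37.3 in TC, 90.6 in PC and 39.4 in RC. It rose in TC (log2 fold change 0.70, adjusted p = 0.0043), rose further in PC (1.99 against CC, adjusted p = 1.1e-06, and 1.28 against TC, adjusted p = 0.00033), and fell from PC to RC (-1.20, adjusted p = 6.8e-05) to a level still above CC (0.78, adjusted p = 0.0054). CDKN2C thus had its highest mean in persister cells, as CCNE2 had among the cyclins. CDKN2A, whose locus encodes p16 and p14ARF, fell from 8.12 to 3.16 CPM in TC (-1.36, adjusted p = 2.4e-06) and was at 2.68 CPM in PC and 5.67 in RC. CDKN2D (p19) was called only in RC against CC (0.86, adjusted p = 0.00064) and in RC against PC (0.54, adjusted p = 0.0045). CDKN2B (p15) had 0 counts in all 12 libraries.

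Of 12 genes for the turnover of cyclins and CDK inhibitors, 8 fell and 1 rose in TC, against 34.7% and 33.2% of all genes tested, with a median log2 fold change of -0.98. CCNB1IP1, an E3 ligase that interacts with cyclin B1, had the lowest value (-4.15, adjusted p = 0.0012) at low levels, 6.47, 0.858 and 1.78 CPM in CC and 0.153 to 0.181 CPM in TC. CC replicate 1 stood apart, and without it the log2 fold change was -2.96 (adjusted p = 0.0053) and CDC20 had the lower value (-4.20), as it also had without TC replicate 1 (-4.23 beside -4.20). FBXW7, the F-box protein that marks cyclin E for degradation, was the one that rose. It averaged 11.8 CPM in CC, 33.2 in TC, 51.7 in PC and 13.5 in RC, with log2 fold changes of 1.49 in TC and 2.13 in PC (adjusted p = 1.3e-06 and 5.7e-08) and 0.19 in RC (adjusted p = 0.318). SKP2, the F-box protein that marks p27, fell by 1.53 in TC and CKS1B, its cofactor, fell by 2.34 (adjusted p = 5.8e-09 and 1.9e-08), and both exceeded CC in RC (0.53 and 0.49). CDC20, the mitotic activator that marks cyclin B1 for degradation, fell by 4.13 in TC (adjusted p = 9.8e-10) and was at 1.10 in RC. SKP2, CKS1B and CDC20 were named after their values were seen, and 3 of the 12 genes were not called in TC. In RC 6 of the 12 were called higher than in CC and 2 lower, against 18.2% and 19.1% of all genes tested.

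Of 18 transcription regulators of these genes, 17 were tested. In TC, 10 fell and 4 rose, against 34.7% and 33.2% of all genes tested, with a median log2 fold change of -0.48. MYC had the lowest value (-3.71, adjusted p = 8.8e-10) and averaged 59.1 CPM in CC, 4.48 in TC, 6.31 in PC and 41.8 in RC. JUN had the highest (4.35, adjusted p = 8.2e-12) and averaged 46.7 CPM in CC, 952 in TC, 719 in PC and 18.8 in RC. Both were thus still displaced from CC at day 2, as CCND1 was, but their courses were not the same as that of CCND1. From TC to PC, JUN fell by 0.40 (adjusted p = 0.0021). MYC rose by 0.49 (adjusted p = 0.027, lost in 6 of 20 alternative fits). In RC, MYC and JUN were called lower than CC (-0.50 and -1.31, adjusted p = 0.0098 and 2.2e-06), while CCND1 was not called. FOXM1, MYBL2 and E2F1, regulators of S phase and mitotic genes, fell in TC (-2.99, -2.90 and -2.56) and rose from TC to PC (2.56, 2.33 and 1.60). They were named after their values were seen, and the list as a whole did not move this way. Of the 17 regulators tested, 5 were called higher and 3 lower in PC against TC, and 9 were not called. The shares of all genes tested were 12.2% and 12.5%.

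**Figure D5:**
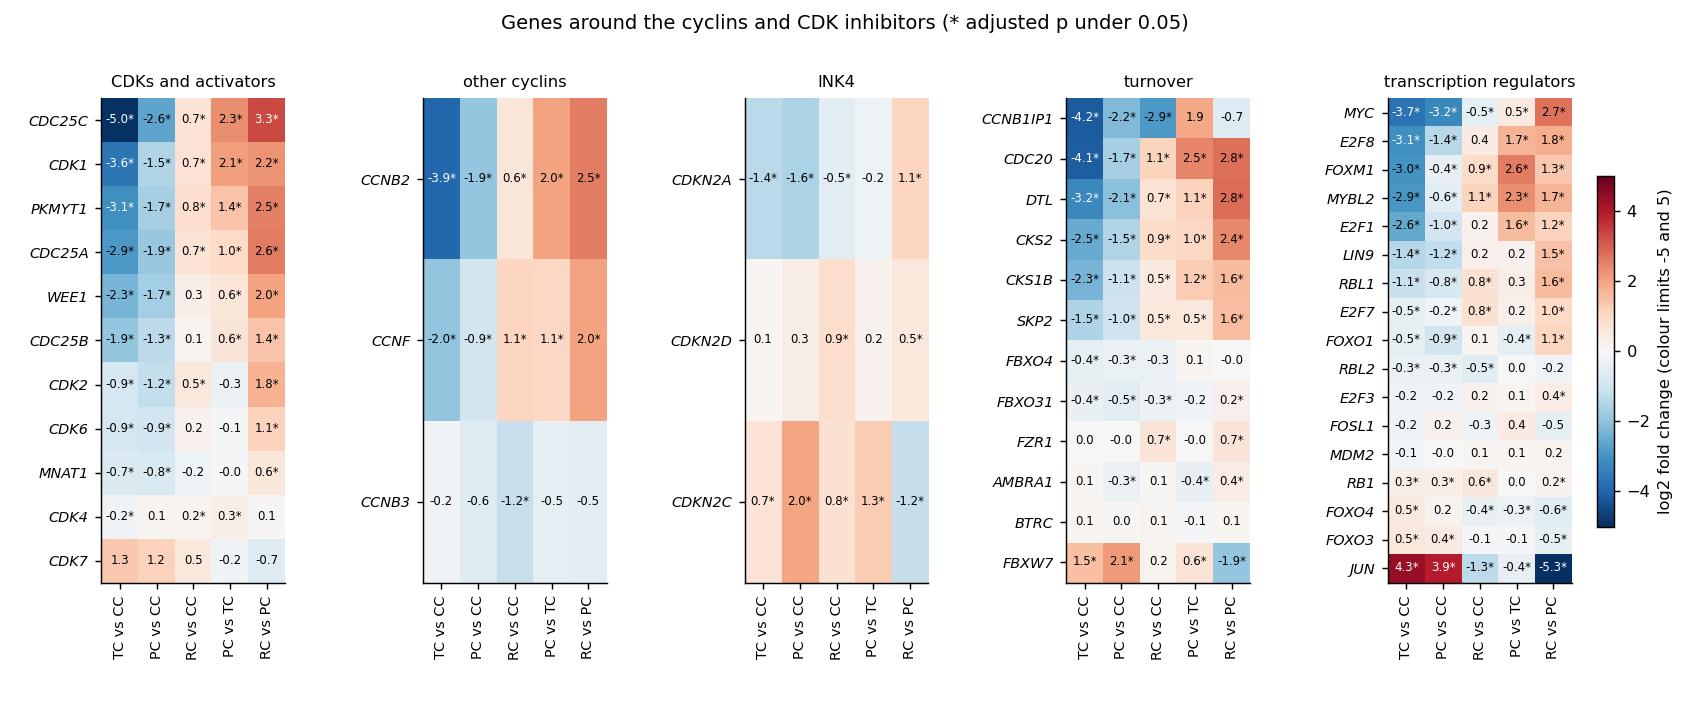
Log2 fold changes of the listed genes in the 5 comparisons, with blue for lower, red for higher, and an asterisk for an adjusted p under 0.05. Most kinases and activators fall in TC and rise again from PC to RC, whereas CDKN2C and FBXW7 are highest in PC, at means of 90.6 and 51.7 CPM.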

How the data were processed

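Cytoplasmic RNA, depleted of ribosomal RNA, was sequenced in pairs of reads. Per the study's methods and processing notes, the authors trimmed reads with fastp 0.20.1, aligned them to GRCh38.p13 with HISAT2 2.2.1 and counted them on exons with htseq-count 0.13.5 and the NCBI annotation; the strand setting is not given in the sources used here. The deposited values are unnormalized counts of reads for each gene. Depth ran from 37773389 to 55567097 counts a library. No 2 libraries of a group were duplicates (chi-square per degree of freedom of 10 or more).

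Genes with a mean library-scaled count of at least 10 were kept (15916 of 44659). All 12 libraries were fitted in edgeR 4.0.16 (R 4.3.3) with 1 mean per group, TMM factors and a quasi-likelihood test, two-sided, with Benjamini-Hochberg adjustment over all genes tested and a threshold of 0.05; glmTreat was used for 1.5-fold. The code was tested on simulated data. DESeq2 1.42.0, other factors and filters, 2-group fits, a replicate block and leaving out each library were alternatives. Same-numbered libraries had correlations of deviations from -0.0373 to 0.155, with 2 of 18 over 0.1. Libraries of unlike numbers had correlations from -0.121 to 0.0417. Between TC and PC the same-numbered values were 0.155, 0.0679 and 0.124, above those for unlike numbers (-0.121 to 0.00342). The main fit used no pairing, so a weak pairing of these groups is not taken into account.

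The genes and lists were chosen with earlier results of these data known, and 1 list gene is not reported here. Named were all 10 genes, the 2 nearest profiles to each, the lowest and highest gene of each list in TC against CC, and every gene of lists of up to 4. CDK1, CDK2, CDK4, CDK6, SKP2, CKS1B, CDC20, FOXM1, MYBL2, E2F1, CCNL1 and the cell type markers SOX10, MITF, MLANA, TYR, COL1A1, COL3A1, KRT5, EPCAM and PECAM1 were added for their role after their values were seen. Nearness is the root mean square distance of centred log2 CPM profiles among genes with a mean of at least 5 CPM. Lengths, overlaps and positions are from GENCODE v44 (hg38). Promoters are from RefSeq (GRCh38.p14), and all 8 windows were identical in hg38.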

Additional observations from a re-analysis of the deposited data

How the results depend on the processing

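Each of the 45 log2 fold changes of the 9 genes tested was recomputed in 20 alternative fits. All 15 values of CCNA2, CCNB1 and CCND1 kept their direction, and their calls held in every fit except that of CCND1 in RC against CC. With only the 2 groups compared in the fit, 3 genes were lower and 1 higher in PC against CC, 1 was lower in RC against CC, and 1 was lower in PC against TC. With DESeq2, 0 were higher beyond 1.5-fold in PC against CC. CCNE2 was called lower in RC against PC with RLE factors, upper quartile factors, DESeq2 and only the 2 groups compared. With library totals, or with a filter at a summed count of 2, 1 was lower in RC against CC. The replicate block takes libraries of the same number together. With it, 1 was higher in PC against CC (CCND3 at adjusted p = 0.0514) and 1 lower in RC against CC (CDKN1B at 0.0527). No other call of these genes changed with the block. Leaving out 1 library, the genes called ranged from 0 to 1 higher in TC, 3 to 5 lower and 1 to 2 higher in PC, 1 to 2 lower in RC, 0 to 3 higher beyond 1.5-fold in RC, 0 to 1 lower in PC against TC and 1 to 3 lower in RC against PC. Values near 0 changed sign: CDKN1B in TC against CC was 0.01 with RLE factors, with DESeq2 and with only 2 groups, 0.02 with the summed count of 2, 0.00 with filterByExpr, and -0.08 to 0.04 leaving out 1 library. CDKN1A in PC against TC was 0.02 with upper quartile factors, 0.00 with library totals and -0.04 to 0.00 leaving out 1 library. CCND3 in PC against TC was -0.02 to 0.09, CDKN1C in PC against TC -0.58 to 0.63 (0.63 without TC replicate 3), and CDKN1B in RC against PC 0.02 with library totals and -0.07 to 0.05 leaving out 1 library. Of the called log2 fold changes of list genes, 219 were called in every alternative fit, 30 were lost in at least 1 and 0 changed sign. The causes were not tested. Low counts limit CCNE2 and CDKN1C, and of 40 levels per kilobase 29 moved beyond the spread with the longest transcript as the length.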

Other observations

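Of 7 cyclins of the kinases of transcription, 4 fell and 2 rose in TC, against 34.7% and 33.2% of all genes tested, with a median log2 fold change of -0.49. CCNH, the partner of CDK7, had the lowest value (-0.85, adjusted p = 9e-07 by edgeR) and averaged 71.9 CPM in CC, 39.8 in TC, 33.6 in PC and 71.4 in RC. CCNL2, a cyclin of splicing kinases, had the highest (0.38, adjusted p = 0.0454), a call that was lost in 11 of 20 alternative fits. In PC 4 were lower and 2 higher than in CC, against 35.9% and 33.2%, with the calls of CCNL1 and CCNL2 lost in 13 and 10 of 20 alternative fits, and in RC 2 were higher, against 18.2%. From TC to PC the log2 fold change of CCNH was -0.24 (adjusted p = 0.0373, lost in 9 of 20 alternative fits).

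Of 7 markers of other cell types, 3 were tested, and KRT14 and COL1A1 had their highest means in PC. KRT14, a keratin of basal epithelium, averaged 0.0151 CPM in CC (2 counts in all), 0.396 in TC, 2.29 in PC and 0.0164 in RC (2 counts in all). COL1A1, a fibrillar collagen, averaged 0.55 CPM in CC, 0.899 in TC, 3.57 in PC and 0.829 in RC. PTPRC, a marker of blood cells, averaged 0.555 CPM in CC and fell to 0.0421 CPM under MAPKi (log2 fold change -3.55, adjusted p = 0.00012). The TC libraries held 2, 0 and 4 counts of it, so the size of this fall rests on values at the limit of detection. PTPRC averaged 0.14 CPM in PC, where it was also called lower than in CC (-1.96, adjusted p = 0.0029), and 0.606 CPM in RC. COL3A1, KRT5, EPCAM and PECAM1 were not tested, with group means of at most 0.232 CPM, that of EPCAM in CC, beside 0.0943 CPM in TC, 0.015 CPM in PC and 0.0552 CPM in RC. Of the melanocyte lineage markers, PMEL had the highest log2 fold change in TC (3.13, adjusted p = 4.3e-07) and S100B the lowest (-0.91, adjusted p = 2.2e-06).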
